A study of Mus musculus with 24 samples.

Results

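The endosomal Toll-like receptors are described here across sorted mouse spleen dendritic cells in which the transcription factor gene Zeb2 was deleted or added. The set is 8 genes of the 24421 symbols in the count files, taken by name: the receptors Tlr3, Tlr7, Tlr8, Tlr9, Tlr11, Tlr12 and Tlr13, and their chaperone Unc93b1. All 8 are listed in all 24 libraries, and all 8 passed the filter on low counts, which kept 13166 genes. Tlr8 passed it through cDC2 alone, so its difference between the subsets was fixed by the filter.

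These receptors sense nucleic acids and microbial proteins inside endosomes. Unc93b1 carries them there from the endoplasmic reticulum, and proteases in the endosome then cut several of them into their working form. Tlr3 binds double-stranded RNA and signals through the adaptor Ticam1, whereas the other receptors signal through Myd88. Tlr7 binds single-stranded RNA and Tlr8, by its human counterpart, breakdown products of RNA. Tlr9 binds DNA with unmethylated CpG, Tlr13 binds bacterial ribosomal RNA, and Tlr11 and Tlr12 bind profilin of the parasite Toxoplasma gondii. Tlr11, Tlr12 and Tlr13 have no working counterpart in humans. In spleen, cDC1 are known for cross-presentation and for Tlr3, and cDC2 for priming of CD4+ T cells.

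The 2 subsets of conventional dendritic cells, cDC1 and cDC2, were sorted from untreated C57Bl/6 mice aged 6 to 12 weeks. In the deletion line, CD11cCRExZeb2fl/fl mice carry Cre driven by CD11c and 2 floxed Zeb2 alleles, and Zeb2fl/fl mice without Cre are the controls. In the transgene line, CD11cCRExR26-Zeb2Tg/Tg mice carry the same Cre and a Zeb2 transgene in Rosa26, and R26-Zeb2Tg/Tg mice without Cre are the controls. Cre driven by CD11c is not specific to these cells, and all controls carry the unrecombined allele. Each subset of each line has 4 Cre-positive and 2 Cre-negative libraries, so 8 groups in all. The labels number the samples within a group but do not say that each came from a separate mouse. The p-values therefore measure the spread between these libraries, which may be partly technical.

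Libraries held 21972763 to 36094786 counts in genes. Levels are given as CPM, counts scaled to a common library total after adjustment by trimmed mean of M-values (TMM). Zeb2 itself was 4.31-fold lower in Cre-positive cDC2 of the deletion line (35.8 ± 4.82 against 154 ± 31.1 CPM, SD, n = 4 and 2, adjusted p = 0.000221, edgeR quasi-likelihood test). It was 15.6-fold higher in Cre-positive transgene-line cDC1 (44.2 ± 2.07 against 2.81 ± 0.631, adjusted p = 4.89e-06). It did not pass the test in the other 2 Cre comparisons, in transgene-line cDC2 (log2 fold change 0.56, adjusted p = 0.676) and in deletion-line cDC1, where it was at 1.22 ± 1.00 against 1.53 ± 1.47 CPM (log2 fold change -0.31). Gene-level counts also hold reads from exons that the deletion leaves in place. The sum of 9 cDC1 markers was 7376 to 14403 CPM in cDC1 libraries and 767 to 1284 in cDC2 libraries. The sum of 8 cDC2 markers was 2584 to 3472 in cDC2 libraries and 31.5 to 324 in cDC1 libraries, with the highest values in Cre-positive transgene-line cDC1.

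The sequences just before the start of 5 of these genes are shown, because Tlr3, Tlr11 and Tlr12 were the receptors highest in cDC1 and Tlr8 and Tlr9 were higher in cDC2. Each is the 250 bases before the RefSeq start on GRCm38.p6, the assembly of mm10, written 5′ to 3′ on the gene's own strand. The Tlr3 window lies inside the longer Tlr3 gene of GENCODE. Capitals mark a match to one of 3 searched motifs.
Tlr3 promoter (chr8:45410381-45410630, minus strand): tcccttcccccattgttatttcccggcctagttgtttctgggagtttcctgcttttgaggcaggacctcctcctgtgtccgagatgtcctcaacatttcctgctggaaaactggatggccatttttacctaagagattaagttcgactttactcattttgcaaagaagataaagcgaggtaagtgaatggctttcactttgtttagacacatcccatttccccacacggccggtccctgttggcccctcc
Tlr11 promoter (chr14:50357664-50357913, plus strand): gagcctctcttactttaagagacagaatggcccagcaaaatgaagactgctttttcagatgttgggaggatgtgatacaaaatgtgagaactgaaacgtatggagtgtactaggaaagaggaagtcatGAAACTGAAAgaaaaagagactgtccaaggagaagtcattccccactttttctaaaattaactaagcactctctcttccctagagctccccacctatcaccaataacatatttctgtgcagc
Tlr12 promoter (chr4:128618620-128618869, minus strand): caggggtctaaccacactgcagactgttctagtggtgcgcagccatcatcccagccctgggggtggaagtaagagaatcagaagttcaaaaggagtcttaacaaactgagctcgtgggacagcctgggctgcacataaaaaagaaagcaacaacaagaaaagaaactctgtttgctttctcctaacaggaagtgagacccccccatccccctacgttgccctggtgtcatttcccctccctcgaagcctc
Tlr8 promoter (chrX:167264330-167264579, minus strand): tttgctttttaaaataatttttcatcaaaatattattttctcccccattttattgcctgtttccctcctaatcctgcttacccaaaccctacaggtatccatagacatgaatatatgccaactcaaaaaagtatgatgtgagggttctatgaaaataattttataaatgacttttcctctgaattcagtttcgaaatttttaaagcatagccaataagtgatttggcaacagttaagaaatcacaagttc
Tlr9 promoter (chr9:106222348-106222597, plus strand): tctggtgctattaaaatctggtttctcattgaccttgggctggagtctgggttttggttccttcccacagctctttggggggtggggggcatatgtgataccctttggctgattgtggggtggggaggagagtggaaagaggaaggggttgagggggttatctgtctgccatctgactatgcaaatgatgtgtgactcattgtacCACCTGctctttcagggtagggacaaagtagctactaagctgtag

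RefSeq promoters were matched for 6 of the 8 genes, Tlr13 being the sixth. Tlr7 and Unc93b1 were not matched. The motifs were CACCTG (reverse complement CAGGTG), the E-box that ZEB factors bind, GAAA and GAAA parted by 2 bases, a pair of IRF half-sites, and GGAA and GAAA parted by 2 bases, an ETS and IRF composite. The last of these, and the pair before it, were chosen after the sequences had been seen, and both strands were searched. CACCTG was found in Tlr9, 45 to 40 bases before the start, and GAAACTGAAA in Tlr11, 122 to 113 bases before it. No match was found in the windows of Tlr3, Tlr8, Tlr12 and Tlr13. Of 32851 promoter windows of the same length, 17.2% held the E-box, 2.98% the IRF pair and 2.3% the composite, so the E-box match in 1 of 6 windows is near the share in all promoters.

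On mm10, per GENCODE, Tlr7 (chrX:167304929-167330558) and Tlr8 (chrX:167242696-167264329) lie side by side on the minus strand of chromosome X, and Tlr13 (chrX:106143204-106160493) lies elsewhere on it. Tlr3 is at chr8:45395665-45411080, Tlr9 at chr9:106222598-106226883 and Tlr11 at chr14:50357914-50363663. Tlr12, a gene of 1 exon, is at chr4:128615443-128618619 and Unc93b1 at chr19:3935186-3949340. None of the 75-base words in the exons of 7 members occurs in another gene. Tlr3 is the exception: its exons overlap the antisense gene Gm45542 over 381 bases, and 4.28% of its words are shared with it. Gm45542 was not analysed here and the strand setting is not given, so reads of the 2 cannot be told apart there.

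The first comparison asks how the receptors differ between the subsets without Cre, with the 4 control cDC2 libraries set against the 4 control cDC1 libraries. In control cDC2, Tlr7, Tlr8 and Tlr9 were higher and Tlr3, Tlr11 and Tlr12 were lower, and Tlr13 and Unc93b1 did not pass the test. Of all genes tested, 53.2% passed in this comparison, 27.5% higher and 25.8% lower in cDC2, beside 6 of the 8 members, or 5 of the 7 besides Tlr8. The 4 libraries of each subset did not overlap for 45.9% of genes, 23.4% higher and 22.6% lower in cDC2, and for 5 of the 8 members, Tlr7 and Tlr8 higher and Tlr3, Tlr11 and Tlr12 lower. Of these 5, Tlr8 was fixed by the filter. The median log2 fold change between the subsets was 0.0091 over the members and 0.048 over all genes.

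Tlr7, the single-stranded RNA receptor, was at 89.5, 114, 105 and 118 CPM in control cDC2 and at 0.188, 0.630, 0.201 and 0.148 in control cDC1. The deletion-line controls are listed before the transgene-line controls. The means were 107 ± 12.7 and 0.292 ± 0.227 CPM (SD, n = 4 each), a 394-fold difference (log2 fold change 8.62 ± 0.54 SE, adjusted p = 1.83e-10, edgeR). The cDC1 value rests on 28 counts over 4 libraries against 11526 in cDC2, 365 times as many (95% counting interval 252 to 549). Such intervals, and the limits set by a count of 0, cover counting error only.

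Tlr8, its neighbour on the X chromosome, had the same direction at a lower level. It was at 13.6, 11.7, 8.40 and 8.35 CPM in control cDC2, and at 0, 0.0420, 0.161 and 0 in control cDC1. The cDC1 libraries held 5 counts of Tlr8 in all against 1130 in cDC2, 200 times as many (95% counting interval 85.5 to 618). A library with no count still allows up to 3 counts, or 0.113 and 0.148 CPM in the 2 control cDC1 libraries at 0.

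Tlr9, the CpG DNA receptor, was low in both subsets. It was at 6.49, 3.42, 8.40 and 10.4 CPM in control cDC2, against 2.59, 2.69, 5.06 and 3.69 in control cDC1, so the groups overlapped. The fold difference was 2.00 (log2 1.00 ± 0.32 SE, adjusted p = 0.0105, edgeR), but an exact permutation test gave p = 0.0857. Without Cre-negative cDC2 replicate 1 of the deletion line the adjusted p of Tlr9 from edgeR was 0.0832. Beside it, the plasmacytoid dendritic cell markers, whose own cells are known for Tlr7 and Tlr9, summed to 104 to 177 CPM in control cDC2 and 107 to 115 in control cDC1. Of these 8 markers 4 were higher and 2 lower in control cDC2, with a median log2 fold change of 1.72. Siglech, a defining one, was at 3.27 to 12.0 CPM in control cDC2 and at 0.0985 to 0.884 in control cDC1. Their part in the result was not tested.

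The receptors for double-stranded RNA and profilin ran the other way. Tlr3 was at 3.73, 7.57, 6.09 and 8.42 CPM in control cDC2 and at 356, 351, 363 and 380 in control cDC1, 56.6-fold lower in cDC2 (log2 fold change -5.82 ± 0.19 SE, adjusted p = 2.38e-16, edgeR). Tlr12 was at 14.4, 9.76, 6.91 and 10.9 in control cDC2 and at 237, 283, 284 and 418 in control cDC1, 29.0-fold lower. Tlr11, its partner in profilin sensing, was at 43.3, 33.3, 28.7 and 42.3 in control cDC2 and at 556, 542, 493 and 564 in control cDC1, 14.6-fold lower. No library of either subset reached the range of the other for these 3 genes. Of the 3, Tlr11 kept the highest level in cDC2, and it was far from 0 there.

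Tlr13 and Unc93b1 were abundant in both subsets. Tlr13 averaged 206 ± 24.9 CPM in control cDC2 and 186 ± 23.1 in control cDC1 (log2 fold change 0.14, 95% interval -0.08 to 0.36, adjusted p = 0.287, edgeR). Unc93b1 averaged 1302 ± 139 in control cDC2 and 1409 ± 151 in control cDC1 (log2 fold change -0.12, 95% interval -0.34 to 0.10, adjusted p = 0.355). For both genes the 4 libraries of one subset overlapped those of the other. In bulk samples, fewer cells that express a gene and less RNA per cell cannot be told apart, here and in all later comparisons.

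**Figure D1:**
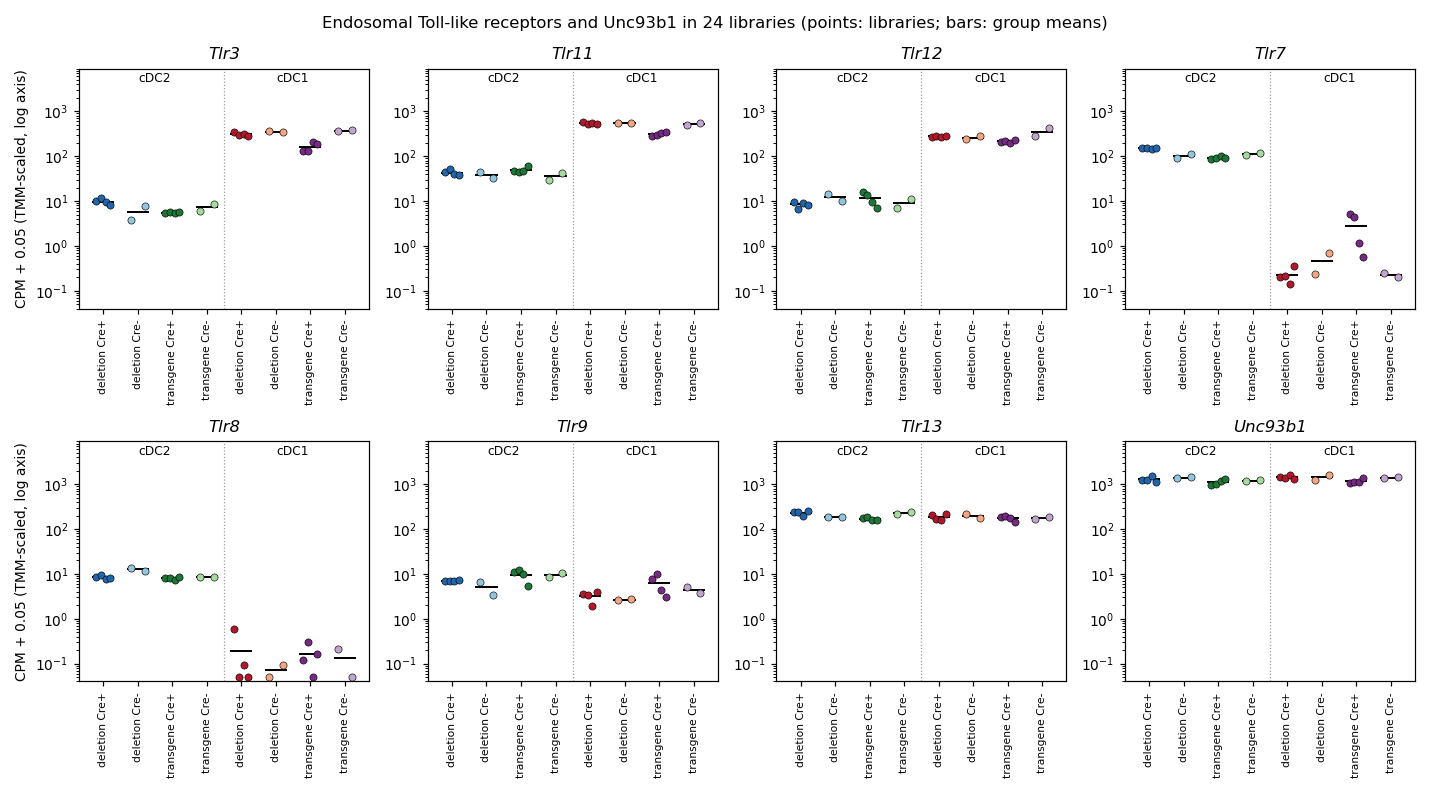
Level of each of the 8 genes in the 24 libraries, as TMM-scaled CPM plus 0.05 on a log axis, with cDC2 to the left and cDC1 to the right of the dotted line in each panel, and Cre-positive left of Cre-negative within a line. Points are libraries and bars are group means; Tlr3, Tlr11 and Tlr12 are higher in every cDC1 library and Tlr7 and Tlr8 in every cDC2 library, while Tlr13 and Unc93b1 lie at like levels in both.

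Levels of different genes can be compared only per length, so CPM were divided by the summed exon length in kilobases. On that scale Unc93b1 led every group, at 429 in control cDC2 and 465 in control cDC1. Among the receptors the order in control cDC2 was Tlr13 (47.8), Tlr7 (26.1), Tlr11 (11.3), Tlr12 (3.31), Tlr8 (2.93), Tlr9 (2.06) and Tlr3 (1.24). In control cDC1 it was Tlr11 (165), Tlr12 (96.1), Tlr3 (69.6), Tlr13 (43.3), Tlr9 (1.0), Tlr7 (0.0714) and Tlr8 (0.0141). Tlr12 and Tlr8 overlapped in the cDC2 libraries of the deletion line, as did Tlr9 and Tlr3 there, and Tlr12 and Tlr9 in those of the transgene line. In Cre-positive transgene-line cDC1, Tlr13 (40.4) ranked above Tlr3 (31.1), although their libraries overlapped.

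The 7 receptors summed to 89.6 and 99.9 CPM per kilobase in the Cre-negative cDC2 of the deletion and transgene lines, and to 364 and 386 in the Cre-negative cDC1. The make-up of that sum differed: Tlr13 was 48.2 and 52.6% of it and Tlr7 27.8 and 27.4% in those cDC2, while Tlr11 was 46.1 and 42.0%, Tlr12 22.5 and 28.4% and Tlr3 18.7 and 18.6% in those cDC1. These shares are means over libraries. A share of reads is a share of mRNA and says nothing of receptor protein.

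**Figure D2:**
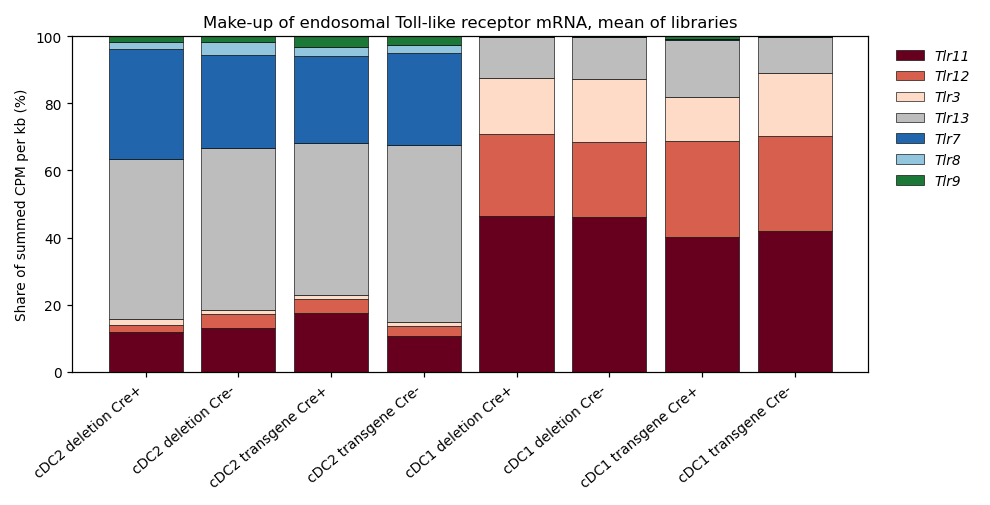
Share of each receptor in the summed CPM per kilobase of the 7 receptors, in percent, as stacked bars of library means for the 8 groups, cDC2 left of cDC1 and Cre-positive left of Cre-negative. Tlr13 and Tlr7 fill most of the cDC2 bars and Tlr11, Tlr12 and Tlr3 most of the cDC1 bars; in cDC1 of the transgene line, Tlr13 is 17.1% of the Cre-positive bar and 10.7% of the Cre-negative bar.

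The second comparison asks what added Zeb2 changed in cDC1, with Cre-positive set against Cre-negative cDC1 of the transgene line. Tlr3 and Tlr11 were lower and Tlr7 was higher in Cre-positive cDC1, so 3 of the 8 members passed the test. Of all genes tested, 6.90% passed, 3.58% higher and 3.31% lower. The groups did not overlap for 25.2% of all genes, 13.4% higher and 11.8% lower, and for 4 of the 8 members, Tlr7 higher and Tlr3, Tlr11 and Tlr12 lower. The median log2 fold change was -0.14 over the members and 0.015 over all genes. The other 5 members did not pass. The Cre-negative libraries are also among the controls of the subset comparison above, so the 2 comparisons are not independent.

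Tlr3 was at 129, 132, 203 and 184 CPM in the Cre-positive libraries 1 to 4, and at 363 and 380 in the Cre-negative libraries. All 4 Cre-positive values lay below both controls, and replicates 1 and 2 were lower than 3 and 4. The means were 162 ± 37.4 and 371 ± 12.4 (SD, n = 4 and 2), 2.29-fold lower with the transgene (log2 fold change -1.20 ± 0.18 SE, adjusted p = 0.000153, edgeR). Even so, Tlr3 in Cre-positive cDC1 was 29.5-fold above Cre-positive cDC2 of the same line.

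Tlr11 was at 288, 292, 336 and 339 CPM in Cre-positive cDC1, against 493 and 564 in Cre-negative cDC1. The groups did not overlap, and Tlr11 was 1.68-fold lower with the transgene (314 ± 27.8 against 528 ± 49.9, log2 fold change -0.75 ± 0.14 SE, adjusted p = 0.00119, edgeR). Tlr12 was at 211, 218, 202 and 230 in Cre-positive cDC1 and at 284 and 418 in Cre-negative cDC1. These groups did not overlap either, but the 2 controls stood far apart and the test was not passed (log2 fold change -0.71, 95% interval -1.17 to -0.25, adjusted p = 0.0591). Tlr12 passed with DESeq2 (adjusted p = 0.0200), in a fit of the compared libraries alone (0.00972), under the stricter filter (0.0488) and without Cre-negative replicate 1 (0.0471), and without Cre-negative replicate 2 its log2 fold change was -0.40.

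Tlr7 was at 5.21, 4.28, 1.09 and 0.522 CPM in Cre-positive cDC1, from 145, 101, 28 and 18 counts. In Cre-negative cDC1 it was at 0.201 and 0.148, from 5 and 3 counts. All 4 Cre-positive libraries lay above both controls, replicates 1 and 2 far more so than 3 and 4. The fold change was 14.9 (log2 3.90 ± 0.96 SE, adjusted p = 0.0177, edgeR), and the pooled counts, 292 against 8, differ 14.8-fold (95% counting interval 7.40 to 34.5). The call was lost without Cre-negative replicate 1 (adjusted p = 0.129) or 2 (0.140) and in a fit of the compared libraries alone (0.0902). Without Cre-positive replicates 1 and 2, a split chosen after seeing the data, the log2 fold change was 2.1 (adjusted p = 0.0145), and without replicates 3 and 4 it was 4.71. At its raised level, Tlr7 in Cre-positive cDC1 was 2.48% of its mean in Cre-negative cDC2 of the line, against 0.156% in Cre-negative cDC1.

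The remaining members did not pass in this comparison. Tlr9 was at 7.76, 10.1, 4.23 and 3.01 CPM in Cre-positive cDC1 and at 5.06 and 3.69 in Cre-negative cDC1 (log2 fold change 0.51, adjusted p = 0.526). Its replicates 1 and 2 lay above both controls and replicates 3 and 4 around or below them. Tlr8 held 2, 6, 0 and 4 counts in Cre-positive cDC1 and 4 and 0 in Cre-negative cDC1, too few to show a difference at this depth. Tlr13 averaged 174 ± 19.9 in Cre-positive and 177 ± 16.1 in Cre-negative cDC1 (log2 fold change -0.03, 95% interval -0.29 to 0.24). Unc93b1 averaged 1174 ± 140 in Cre-positive and 1396 ± 49.9 in Cre-negative cDC1 (log2 fold change -0.25, adjusted p = 0.288), and Cre-positive replicate 4, at 1384, stood above the other 3, at 1092 to 1119.

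Markers of the other subset moved with these values. The 8 cDC2 markers summed to 324, 302, 189 and 124 CPM in the Cre-positive cDC1 libraries 1 to 4 and to 39.7 and 40.4 in the Cre-negative ones, and 5 of the 8 passed the test, all higher. Sirpa, a defining cDC2 surface protein, was at 115, 117, 53.1 and 36.2 in Cre-positive cDC1 and at 6.99 and 7.78 in Cre-negative cDC1. The 9 cDC1 markers summed to 7376, 7511, 8720 and 10106 in Cre-positive cDC1 and to 11586 and 14403 in Cre-negative cDC1, and 4 of the 9 were lower. Zeb2 was even over the 4 Cre-positive libraries, at 41.3 to 46.2. Red pulp macrophage markers summed to 497, 478, 265 and 393 in the Cre-positive cDC1 libraries 1 to 4, so replicates 1 and 2 were highest here too. They summed to 171 and 206 in Cre-negative cDC1, and 3 of 10 were higher with the transgene. Monocyte markers summed to 464 to 575 in Cre-positive and 237 to 468 in Cre-negative cDC1, with 2 of 8 tested higher. Plasmacytoid dendritic cell markers summed to 68.5 to 84.4 in Cre-positive and 107 to 109 in Cre-negative cDC1, with 1 of 8 lower. B cell markers summed to 11.2 to 25.5 in Cre-positive and 34.1 to 51.1 in Cre-negative cDC1, with 0 of 7 tested past the threshold. None of the defining markers Sirpa, Irf4, Vcam1 and C1qa was at 0 in any of these libraries, and the part of other cells in the results on Tlr3, Tlr7, Tlr9 and Tlr11 was not tested.

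**Figure D3:**
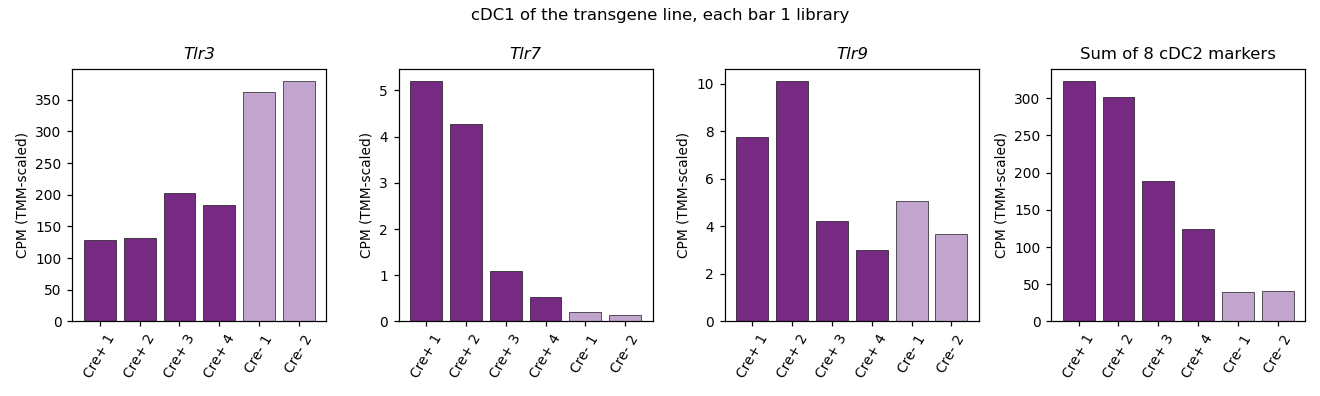
Tlr3, Tlr7, Tlr9 and the sum of 8 cDC2 markers in the 6 cDC1 libraries of the transgene line, as TMM-scaled CPM on linear axes from 0, 1 bar per library, Cre-positive left of Cre-negative. In the Cre-positive replicates 1 and 2, Tlr3 is lower (129 and 132) and Tlr7, Tlr9 and the marker sum (324 and 302) are higher than in replicates 3 and 4.

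The third comparison asks what loss of Zeb2 changed in cDC2, with Cre-positive set against Cre-negative cDC2 of the deletion line. Of the 8 members 1 passed, Tlr3, which was higher in Cre-positive cDC2, while 5.18% of all genes passed, 2.34% higher and 2.84% lower. The median log2 fold change was 0.24 over the members and 0.0084 over all genes. Tlr3 was at 9.84, 11.5, 9.44 and 7.97 CPM in Cre-positive cDC2 and at 3.73 and 7.57 in Cre-negative cDC2. The groups did not overlap, although Cre-positive replicate 4 was close to control 2. The means were 9.69 ± 1.46 and 5.65 ± 2.71 (SD, n = 4 and 2), 1.72-fold higher with the deletion (log2 fold change 0.78 ± 0.23 SE, adjusted p = 0.0472, edgeR).

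That call was a narrow one. Without control 1 the log2 fold change of Tlr3 was 0.36 (adjusted p = 0.639), and the call was also lost without Cre-positive replicate 1 (0.0818), 2 (0.117) or 3 (0.0648). It was lost with no filter on low counts (0.0666) and in a fit of the compared libraries alone (0.141). On the scale of cDC1 the level stayed low: Tlr3 in Cre-positive cDC2 was 2.74% of its mean in the Cre-negative cDC1 of the line, against 1.60% in Cre-negative cDC2.

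Without passing the test, 5 more members had groups that did not overlap, so 6 of 8 in all, 4 higher and 2 lower, beside 27.1% of all genes, 13.5% higher and 13.6% lower. Tlr7 was at 150, 149, 142 and 155 CPM in Cre-positive cDC2 and at 89.5 and 114 in Cre-negative cDC2 (log2 fold change 0.55, adjusted p = 0.528). It passed in a fit of the compared libraries alone (adjusted p = 0.0139), and its level was the highest of the 8 groups. Tlr13 was at 239, 239, 196 and 248 in Cre-positive cDC2 and at 186 and 185 in Cre-negative cDC2 (log2 fold change 0.31, adjusted p = 0.200). Tlr9 was at 6.77 to 7.28 in Cre-positive cDC2 and at 6.49 and 3.42 in Cre-negative cDC2 (log2 fold change 0.50, adjusted p = 0.564).

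Tlr8 and Tlr12 lay the other way. Tlr8 was at 8.29, 9.42, 7.81 and 8.13 CPM in Cre-positive cDC2 and at 13.6 and 11.7 in Cre-negative cDC2 (log2 fold change -0.59, adjusted p = 0.558). Tlr7 and Tlr8, which share ligand class and neighbourhood, thus had fold changes of opposite sign, neither of which passed. Tlr12 was at 9.46, 6.73, 9.13 and 8.05 in Cre-positive cDC2 and at 14.4 and 9.76 in Cre-negative cDC2 (log2 fold change -0.54, adjusted p = 0.262). Tlr11 (log2 fold change 0.16) and Unc93b1 (-0.14) overlapped between the groups.

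Beside these values, the sum of 9 monocyte markers was 1257 to 1559 CPM in Cre-positive cDC2 and 3118 to 3806 in Cre-negative cDC2. Of the 8 that were tested 4 were lower with the deletion, Ccr2, Csf1r, Cx3cr1 and Lyz2. The defining monocyte genes parted. Ccr2 was at 26.9 to 58.0 in Cre-positive and at 156 and 137 in Cre-negative cDC2. Ly6c2 was at 0.697 to 4.51 in Cre-positive and at 0.224 and 1.65 in Cre-negative cDC2. The sum of 8 B cell markers was 213 to 271 in Cre-positive cDC2 and 65.6 to 83.7 in Cre-negative cDC2, while the defining B cell gene Cd79a was at 0.594 to 7.62 in Cre-positive and at 3.43 and 6.46 in Cre-negative cDC2. Of the cDC1 markers 2 were lower, Clec9a and Cadm1. The 8 plasmacytoid dendritic cell markers summed to 105 to 118 in Cre-positive and 104 to 109 in Cre-negative cDC2, and 1 of them was higher, Cox6a2. The part of these cells in the values of the receptors was not tested.

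**Figure D4:**
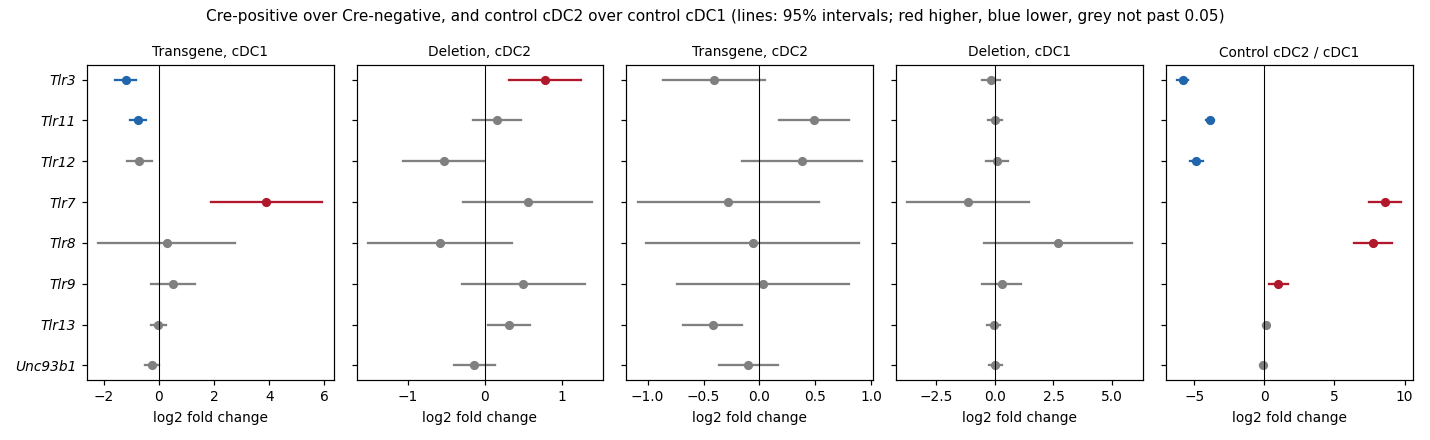
Log2 fold changes of the 8 genes with 95% intervals from the edgeR fit, in the 4 comparisons of Cre-positive with Cre-negative libraries and in control cDC2 over control cDC1; each panel has its own horizontal scale. Red and blue mark adjusted p under 0.05, higher and lower, and grey the rest: 3 genes pass for the transgene in cDC1, 1 for the deletion in cDC2, none in the next 2 panels and 6 between the control subsets. Of those 6, Tlr8 was fixed by the filter.

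In the 2 comparisons where Zeb2 itself did not pass the test, no member passed. With the transgene in cDC2, 0.289% of all genes passed, 0.0987% higher and 0.190% lower, and 0 of 8 members. At an unadjusted p under 0.05, Tlr11 (0.0039) and Tlr13 (0.0033) would have passed. Tlr11 was at 47.1, 43.4, 47.2 and 61.2 CPM in Cre-positive cDC2 and at 28.7 and 42.3 in Cre-negative cDC2 (log2 fold change 0.49, adjusted p = 0.241, edgeR). Tlr13 was at 173, 185, 158 and 159 in Cre-positive cDC2 and at 214 and 237 in Cre-negative cDC2 (log2 fold change -0.42, adjusted p = 0.220).

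Tlr3 and Tlr7 also had groups that did not overlap in that comparison, both lower in Cre-positive cDC2, so 4 of 8 members with Tlr11 higher and Tlr13 lower, beside 20.9% of all genes, 11.0% higher and 9.97% lower. Tlr7 was at 87.2 to 99.3 CPM in Cre-positive cDC2 and at 105 and 118 in Cre-negative cDC2 (log2 fold change -0.28, adjusted p = 0.920). Tlr3 was at 5.35 to 5.62 in Cre-positive cDC2 and at 6.09 and 8.42 in Cre-negative cDC2 (log2 fold change -0.41, adjusted p = 0.654). Tlr9 spread widely, at 11.2, 12.1, 9.78 and 5.32 in Cre-positive cDC2 and at 8.40 and 10.4 in Cre-negative cDC2. Beside it Siglech, a defining plasmacytoid dendritic cell gene, was at 14.6, 27.1, 12.9 and 2.68 in the Cre-positive libraries in the same order and at 10.2 and 12.0 in the controls. Its part in the spread of Tlr9 was not tested.

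With the deletion in cDC1, where Zeb2 was scarce in both groups, 0.0228% of all genes passed, which is 3 genes, and 0 of 8 members. No member had an unadjusted p under 0.05 there, and none passed with DESeq2. Tlr3 was at 348, 296, 317 and 286 CPM in Cre-positive cDC1 and at 356 and 351 in Cre-negative cDC1 (log2 fold change -0.18, 95% interval -0.57 to 0.20). It was the only member whose groups did not overlap, and it was lower, beside 11.7% of all genes, 6.10% higher and 5.58% lower. Tlr11 had a 95% interval of -0.31 to 0.29, Tlr13 of -0.32 to 0.22 and Unc93b1 of -0.25 to 0.28 on the log2 scale. Tlr8 held 14, 0, 1 and 0 counts in Cre-positive cDC1 and 0 and 1 in Cre-negative cDC1, so its log2 fold change of 2.68 (adjusted p = 0.999) rests on replicate 1 and was -0.37 without it.

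Whether a Cre effect differed between the subsets was tested as an interaction, cDC2 minus cDC1. In the transgene line 2 of 8 members passed, 1 in each direction, beside 1.94% of all genes, 0.798% with a higher and 1.15% with a lower effect in cDC2. For Tlr11 the difference was 1.24 ± 0.21 SE on the log2 scale (adjusted p = 0.00139, edgeR), from a fold change of 0.49 in cDC2 and -0.75 in cDC1. Tlr11 passed without any single library (adjusted p of 0.000610 to 0.0272). For Tlr7 the difference was -4.18 ± 1.05 SE (adjusted p = 0.0489), from -0.28 in cDC2 and 3.90 in cDC1. It was lost in 10 of 12 fits that each left out 1 library (adjusted p of 0.0661 to 0.241 there), and with a block on replicate number (adjusted p = 0.169). In the deletion line 0 of 8 passed, beside 1.15% of all genes, 0.608% higher and 0.539% lower. The difference for Tlr3 there was 0.96 ± 0.29 SE (unadjusted p = 0.0033, adjusted p = 0.122), and it passed with DESeq2 (adjusted p = 0.0362) and without Cre-negative cDC2 replicate 2 (0.00885).

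The gap between the subsets in Cre-positive mice was set beside that in the controls. In the deletion line 7 of 8 members passed, 4 higher and 3 lower in cDC2, beside 56.0% of all genes, 28.9% higher and 27.0% lower. The 4 higher include Tlr8, whose difference was fixed by the filter. Tlr7 had a log2 fold change of 9.68, Tlr8 of 5.73, Tlr9 of 1.12 and Tlr13 of 0.29, all higher in cDC2. Tlr3 (-5.01), Tlr11 (-3.67) and Tlr12 (-5.06) were lower in cDC2. The call of Tlr13 (adjusted p = 0.0240) was lost in 5 of 8 fits that each left out 1 library.

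In the transgene line 5 of 8 passed, 2 higher and 3 lower in cDC2, beside 52.7% of all genes, 26.8% higher and 26.0% lower. The 2 higher include Tlr8, whose difference was fixed by the filter. Tlr7 had a log2 fold change of 5.09 and Tlr8 of 6.16, both higher in cDC2, and Tlr3 (-4.88), Tlr11 (-2.66) and Tlr12 (-4.21) were lower. For Tlr9 it was 0.62 (adjusted p = 0.0959), and 0.69 (adjusted p = 0.0159) with a block on replicate number. Tlr7 was thus 34.0-fold higher in Cre-positive cDC2 than in Cre-positive transgene-line cDC1, and 819-fold in the deletion line, against 394-fold between the controls of both lines. The lowest of these folds goes with the raised Tlr7 of Cre-positive cDC1, and the test of that change is the interaction above.

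Across the 8 groups, each receptor could also be ranked by its mean. Tlr3 ran from 371 ± 12.4 CPM in Cre-negative transgene-line cDC1 (SD, n = 2) through 354 ± 3.30 in Cre-negative and 312 ± 27.2 in Cre-positive deletion-line cDC1 (n = 2 and 4) to 162 ± 37.4 with the transgene. Its neighbours in this order did not overlap in cDC1. In cDC2 the 4 groups lay between 5.48 and 9.69 CPM and each overlapped the next. Tlr11 was at 314 to 549 CPM over the cDC1 group means, where the transgene group alone did not overlap the next, and at 35.5 to 49.7 over the cDC2 group means, which all overlapped the next. Tlr12 was at 215 to 351 CPM in cDC1, again with the transgene group alone apart, and at 8.34 to 12.1 in cDC2.

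For Tlr7 and Tlr8 all 4 cDC2 groups ranked above all 4 cDC1 groups. Tlr7 was highest in Cre-positive deletion-line cDC2 (149 ± 5.38 CPM, n = 4), which overlapped no other group, and Tlr8 in Cre-negative deletion-line cDC2 (12.6 ± 1.34, n = 2), which overlapped none either. The order of Tlr9, Tlr13 and Unc93b1 followed subset less closely. Tlr9 was highest in the transgene-line cDC2, Cre-positive (9.60 ± 3.01, n = 4) and Cre-negative (9.40 ± 1.41, n = 2), and lowest in deletion-line cDC1, Cre-positive (3.21 ± 0.942, n = 4) and Cre-negative (2.64 ± 0.0681, n = 2). For Tlr13 the group means lay between 169 and 230 CPM and for Unc93b1 between 1110 and 1439, and every group overlapped the next. The lowest mean of both was in Cre-positive transgene-line cDC2.

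The other genes of the pathway were counted by role. Of 18 tested genes, of 19 listed, for receptor traffic and processing, 3 were higher with the transgene in cDC1 and 0 passed in the other 3 Cre comparisons, and between the control subsets 8 were higher and 6 lower in cDC2. Of all genes, 3.58% were higher with the transgene in cDC1, and 27.5% were higher and 25.8% lower in control cDC2. The list had a median log2 fold change of 0.027 with the transgene in cDC1 and 0.11 between the control subsets, beside 0.015 and 0.048 over all genes. The 3 were Lgmn, a protease reported to cut Tlr9 (82.4 ± 13.9 against 33.1 ± 7.35 CPM, 2.49-fold, adjusted p = 0.000138), Ctss, a cysteine protease (1.35-fold, 0.00136), and Lamp1, a lysosome membrane protein (1.48-fold, 0.0163). Lgmn (2.79-fold) and Ctss (2.31-fold) were also higher in cDC2 among the controls. Hsp90b1, the folding chaperone of these receptors, was 3.04-fold lower in control cDC2, at 259 ± 17.1 against 786 ± 81.1 CPM, and Ap3s1, of the adaptor complex that sorts them, 2.44-fold lower. The Lamp1 call was lost without Cre-negative replicate 1 (adjusted p = 0.0601) or 2 (0.203), and the Ctss call in a fit of the compared libraries alone (0.0715).

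Of 22 adaptor and signalling genes, 1 was higher with the transgene in cDC1, 1 was lower with the deletion in cDC2, and 0 passed in the other 2 Cre comparisons, beside 3.58% of all genes higher with the transgene in cDC1 and 2.84% lower with the deletion in cDC2. Myd88, the adaptor of all members but Tlr3 and Unc93b1, was 1.33-fold higher with the transgene in cDC1 (175 ± 17.6 against 131 ± 17.0 CPM, adjusted p = 0.00699), which was lost without Cre-negative replicate 1 (0.190) and in a fit of the compared libraries alone (0.107). Nfkb1, an NF-kappaB subunit, was 1.43-fold lower with the deletion in cDC2 (403 ± 52.0 against 577 ± 26.4, adjusted p = 0.00978), which was lost without control 1 (0.164). Between the control subsets 12 were higher and 4 lower in cDC2, with a median log2 fold change of 0.26, beside 27.5% higher, 25.8% lower and a median of 0.048 over all genes. Nfkb1 (6.30-fold) and the kinase Irak4 (1.63-fold) were higher, and Irf5 (1.75-fold) and Ticam1, the adaptor of Tlr3 (1.93-fold), were lower in cDC2.

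Of 11 tested genes for handling of ligands, of 13 listed, 1 was higher with the deletion in cDC2 and 0 passed in the other 3 Cre comparisons. Over all genes 2.34% were higher with the deletion in cDC2. The gene was Slc29a3, a lysosomal nucleoside transporter (175 ± 27.6 against 110 ± 4.02 CPM, 1.60-fold, adjusted p = 0.0220), whose call was lost without either control (adjusted p of 0.176 and 0.154) and without Cre-positive replicate 2 (0.0661). Between the control subsets 5 were higher and 2 lower in cDC2, with a median log2 fold change of 0.21, so 7 of 11 passed beside 53.2% of all genes. Pld3, an exonuclease of endosomes, was 4.81-fold higher and Sidt2, an RNA transporter, 1.78-fold higher. Dnase1l3, a secreted DNase, was 2.48-fold lower, and Rnaset2b, an RNase with a near-identical copy that makes its count uncertain, 3.16-fold lower.

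The 5 surface receptors serve as the nearest set outside the endosome. Of them 4 were higher and 1 lower in cDC2 among the controls, with a median log2 fold change of 1.60, beside 27.5% higher and 25.8% lower over all genes. Those higher were Tlr1, Tlr5, Tlr6 (3.03-fold) and Tlr2 (2.03-fold), and Tlr4 was lower. Tlr1, a partner of Tlr2 for bacterial lipoproteins, was at 145 ± 10.8 CPM in control cDC2 and 4.89 ± 1.40 in control cDC1, and Tlr5, the flagellin receptor, at 38.6 ± 3.69 and 0.0499 ± 0.0708. Control cDC1 held too little Tlr5 to carry it past the filter on low counts. Its difference between the subsets may thus have been fixed by the filter, as that of Tlr8 was. Tlr1 was 8.70-fold higher with the transgene in cDC1 (35.7 ± 15.9 against 4.11 ± 0.525, adjusted p = 3.55e-06), the only 1 of the 5 that passed there, beside 6.90% of all genes. Tlr4, the lipopolysaccharide receptor, was 2.29-fold higher with the deletion in cDC2 (28.1 ± 4.14 against 12.3 ± 0.121, adjusted p = 0.00137), the only 1 of the 5 there, beside 5.18% of all genes.

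Over the 24 libraries the members' levels were correlated with those of 9315 genes (9316 for Tlr8) whose mean log2 CPM reached 2. These correlations mainly reflect the gap between the subsets, since points share subset and line, and are given as a description. The genes most like Tlr3 were Cd86, Rab32 and Cst3 (r of 0.993, 0.991 and 0.990), and those most like Tlr11 were Ece1, Slco3a1 and Nek6 (0.993, 0.992 and 0.991). Those most like Tlr12 were Irf8, Mlec and Cxx1b (0.994, 0.994 and 0.993). Irf8, a transcription factor of cDC1, was 1.74-fold lower with the transgene in cDC1.

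For the receptors high in cDC2, those most like Tlr7 were Ctnnd2, Clec4a4 and Cd300lf (0.990, 0.989 and 0.989), and those most like Tlr8 were Nlrp10, Cyp4f37 and H2-DMb2 (0.983, 0.979 and 0.978). Tlr9 (Adprm, Slfn2 and Fancg, 0.858 to 0.838), Tlr13 (Dtx3l, Cnot4 and Cfl2, 0.849 to 0.787) and Unc93b1 (Slc39a11, Phkg2 and Chsy1, 0.851 to 0.832) had no gene as close. Among the members, Tlr3 and Tlr11 (0.985), Tlr11 and Tlr12 (0.982) and Tlr3 and Tlr12 (0.973) were the closest, and Tlr7 and Tlr8 had an r of 0.945. Unc93b1 and the receptors it carries had r of -0.75 (Tlr9) to 0.39 (Tlr3), over a range of Unc93b1 levels of 973 to 1636 CPM.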

How the data were processed

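Sorted cDC1 and cDC2 from mouse spleens gave 24 libraries. A SMART-Seq v4 kit amplified 4 ng of RNA per sample over 15 PCR cycles, and 250 bp inserts were read for 75 bases, per the labels' protocols. Per the submitters' processing notes, FastQC 0.11.4, Trimmomatic 0.35, TopHat2 2.1.0 and SAMtools 0.1.18 were used with mm10. The deposited files hold the authors' raw integer counts per gene symbol, without scaling. Which program counted the reads, with which annotation and strand setting, is not given in the sources used here. Summary lines that name no gene were left out of totals and tests. They held 10.4 to 15.7% of reads as no feature and 0.970 to 1.09% as ambiguous, with 0 in the line for alignments that are not unique.

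Groups came from the labels. The members, lists, comparisons and alternatives were chosen with earlier results of these data known. In R 4.3.3 with edgeR 4.0.16, filterByExpr kept genes (minimum count of 10, minimum total of 15), which were scaled by TMM (factors 0.925 to 1.07). One robust quasi-likelihood fit of 24 libraries had a mean for each of the 8 groups. Benjamini-Hochberg adjustment ran over all 13166 genes, with a threshold of 0.05. Exact two-sided permutation tests of single genes cannot go below p = 0.133 with 4 against 2 libraries, so they give no call there. With 4 against 4 the lowest p is 0.0286. Between the control subsets Tlr3, Tlr7, Tlr8, Tlr11 and Tlr12 had that p, Tlr9 0.0857, Tlr13 0.314 and Unc93b1 0.4. For likeness, log2 CPM were computed at a prior count of 2. Exon lengths and positions are from GENCODE M21. The procedure was tested on simulated data. Counting intervals have a level of 95%, and a floor is 3 counts in a library.

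All 8 members were named in each comparison. From each list, up to 4 genes past the threshold with the smallest p were named per Cre comparison and for the control subsets. In addition the 3 genes most like each member, Zeb2 and the markers were named. Genes named outside this rule, such as Csf1r, Cx3cr1, Lyz2 and Cadm1, were chosen after their values were seen. Pairing of cDC1 with cDC2 by replicate number was accepted only for Cre-positive transgene-line libraries. There, deviations from the means had r above 0.1 in all 4 pairs (0.101 to 0.111). That cut does not separate the lines well. With the deletion, same-numbered Cre-positive libraries reached 0.0764 to 0.170, and each matched its own number best. The pairing comes from the data, not from the labels. Even for the transgene line the main fit had no block, and the pairing entered only in the alternative with a replicate block. Subset and interaction tests of the main fit thus treated libraries that may be paired as independent. Alternatives were DESeq2 1.42.0 or its size factors, no low-count filter, a stricter one (5 CPM or more in 4 or more libraries), a fit of only the libraries compared, a replicate block and leaving out each library. The level of 1 marker gene is not reported here.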

Additional observations from a re-analysis of the deposited data

Results flagged for a closer look

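In groups of 4 libraries, a single value far from the other 3 was found in 2 of 32 tests, where chance flags about 1 in 20. Tlr8 was at 0.533 CPM in replicate 1 of Cre-positive cDC1 of the deletion line, from 14 counts, while the other 3 libraries held 0, 1 and 0 counts. Unc93b1 was at 1384 CPM in replicate 4 of Cre-positive cDC1 of the transgene line, while the other 3 held 1092 to 1119.

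For 2 genes the effect of the transgene differed between the subsets by a test of the difference without a block on replicate number. For Tlr11 it was higher by 1.24 on the log2 scale in cDC2 than in cDC1, and the 6 libraries of each subset went opposite ways without overlap between Cre-positive and Cre-negative. For Tlr7 the difference was -4.18, which did not pass with a block on replicate number (adjusted p = 0.169), beside cDC2 marker sums that were 124 to 324 CPM in Cre-positive cDC1 and 39.7 to 40.4 in Cre-negative cDC1. The part of those markers in the difference was not tested.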

How the results depend on the processing

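The number of members past the threshold was within 1.5 times of that reported in every alternative for the transgene in cDC1, the transgene in cDC2, the deletion in cDC1 and the 3 subset comparisons. For the difference of the transgene effect between subsets it was 1, not 2, with DESeq2 size factors, no filter, the compared libraries alone or a replicate block, and 1 to 2 with a library left out. For the deletion in cDC2 it was 0, not 1, with no filter or a replicate block, and 0 to 1 with a library left out. For the difference of the deletion effect it was 1, not 0, with DESeq2, and 0 to 1 with a library left out. Of the pathway lists, adaptors and signalling had 0 to 3 calls, not 1, with the transgene in cDC1 (0 in the compared libraries alone, 2 with DESeq2, the stricter filter or the block) and 0 to 2, not 1, with the deletion in cDC2. Surface receptors had 2, not 1, with DESeq2 or the block for the transgene in cDC1 and with the compared libraries alone for the deletion in cDC2. The cause was not tested.

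In the Cre comparisons the replicate block was 1 effect per number shared by all groups, so it joined libraries of different lines. In the subset and interaction comparisons it was 1 effect per line, Cre state and number. Calls of single members moved with these blocks 4 times. Tlr3 with the deletion in cDC2 (0.76, adjusted p = 0.0670) and Tlr7 in the transgene interaction (adjusted p = 0.169) were lost, and Tlr9 (0.69, 0.0159) and, in the deletion line, Unc93b1 (-0.16, 0.0434) gained a call between Cre-positive subsets. In the deletion line the numbers were not taken to pair the samples, since 1 of 4 same-numbered Cre-positive pairs had an r under 0.1 (range 0.0764 to 0.170). Each of them still correlated best with its own number, as the Cre-positive pairs of the transgene line did, so the data hint at pairing in both lines. The controls had r of -0.00779 (0.0352 for controls of the transgene line). With the block of the Cre comparisons the sign turned for Tlr13 (0.0055) and Unc93b1 (-0.061) with the deletion in cDC1. It also turned for Tlr13 with the transgene in cDC1 (0.034) and Tlr8 with the transgene in cDC2 (0.13). Without Cre-positive cDC1 replicates 1 and 2 of the transgene line it turned for Tlr8 (-0.39) and Tlr9 (-0.28), and without 3 and 4 for Tlr13 (0.085), a split chosen after seeing the data.

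With a library left out, some log2 fold changes that had not passed the test crossed 0. With the transgene in cDC1 these were Tlr8 (-0.55 to 4.55) and Tlr13 (-0.11 to 0.072), and with the transgene in cDC2 Tlr9 (-0.11 to 0.23). With the deletion in cDC1 they were Tlr8 (-0.37 to 5.04), Tlr11 (-0.041 to 0.020), Tlr12 (-0.024 to 0.25), Tlr13 (-0.19 to 0.11) and Unc93b1 (-0.16 to 0.23), and in cDC2 Tlr11 (-0.016 to 0.36). Between Cre-positive subsets of the transgene line they were Tlr13 (-0.12 to 0.0086) and Unc93b1 (-0.16 to 0.0075). In the transgene interaction it was Tlr8 (-4.61 to 0.49), and in the deletion interaction Tlr9 (-0.18 to 0.75), Tlr11 (-0.0065 to 0.37) and Unc93b1 (-0.37 to 0.023). Depth limits Tlr7 and Tlr8 in cDC1, where counts were few and a library at 0 still allows up to 3 counts. All Cre comparisons are limited by 2 controls per group.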
